A study of Mus musculus with 9 samples.

Results

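The interferon-stimulated genes described here are a list of 43 genes, chosen by name, whose transcription is known to respond to interferons. This list and the other gene lists below were chosen with earlier results of these data known. Their contrasts with all genes are therefore descriptions. All 43 were found among the 16755 genes of the table, and 42 of them reached a mean of 1 over the 3 groups, which is called expressed here. RNA-seq was performed on liver of 9 C57BL/6 mice in 3 groups of 3. Scd2f/f mice, in which the third exon of the stearoyl CoA desaturase gene Scd2 is flanked by loxP sites, were either left untreated (control) or treated with the hepatic carcinogen diethyl nitrosamine (DEN) and Western alcohol diet (WAD). The third group, Scd2f/f;CC, also carried the Col1a1-Cre transgene and had the same treatment. By the sample labels, DEN was injected when mice were 2 weeks old, at 10 mg/kg, and the diet started at 6 weeks and lasted 4 months, while the study's methods give a longer feeding. The labels give this protocol for every sample, while their treatment field marks the controls as untreated. Floxed Scd2 was shared by all 3 groups, and no group had Cre without the floxed gene or treatment without it. The Col1a1 promoter drives Cre in collagen-producing cells, which in liver are mainly activated hepatic stellate cells (aHSC) and portal fibroblasts. RNA was taken from whole liver tissue, not from the cells in which Cre acts. Tissue of the treated mice is named tumor-adjacent liver (TAL) after the study, while the sample labels name it liver. TAL of Scd2f/f mice is written TAL below and that of Scd2f/f;CC mice CC TAL.

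Interferons are secreted proteins that alert cells to virus and to damaged nucleic acid. Type I interferons signal through the receptor chains IFNAR1 and IFNAR2 to a complex that contains STAT2 and IRF9 and binds the interferon-stimulated response element (ISRE) in promoters. Type II interferon, IFN-γ, signals through IFNGR1 and IFNGR2 to promoters with the gamma-activated site (GAS). The products include sensors of foreign RNA, enzymes that degrade or deplete nucleic acids, and large GTPases that attack the vacuoles of intracellular pathogens. In liver, both hepatocytes and Kupffer cells, the resident macrophages, respond to interferons.

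The promoters of the list were examined first, in windows from 250 bases before to 50 bases after each RefSeq transcript start (GRCm38.p6). Windows were matched by symbol for 31 of the 43 genes. The ISRE core, GAAA and GAAA with any 2 bases between them, was present on either strand in at least 1 window of 17 of these 31 genes (54.8%), against 3.99% of 27025 genes with a window. The GAS core TTCNNNGAA was present in windows of 11 of the 31 genes (35.5%), against 9.55% of all genes. An ISRE alone was found for 12 genes, a GAS alone for 6, both for 5 and neither for 8. The stretches below show 180 bases up to the base before the transcript start, 5′ to 3′ on the strand of the gene, with matches of either core in capitals. They were chosen because they show the arrangement of the cores in genes that the comparisons turn on, first those with an ISRE (Oas1a and Tgtp1 also have a GAS) and then Irf1 and Irf8, which have a GAS alone. An ISRE on the opposite strand reads as its reverse complement, TTTC and TTTC around 2 bases.
Isg15, chr4:156200819-156200998, minus strand: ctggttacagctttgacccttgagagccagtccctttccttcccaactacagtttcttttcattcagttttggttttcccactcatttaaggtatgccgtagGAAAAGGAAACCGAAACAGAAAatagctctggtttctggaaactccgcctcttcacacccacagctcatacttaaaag
Oas3, chr5:120777660-120777839, minus strand: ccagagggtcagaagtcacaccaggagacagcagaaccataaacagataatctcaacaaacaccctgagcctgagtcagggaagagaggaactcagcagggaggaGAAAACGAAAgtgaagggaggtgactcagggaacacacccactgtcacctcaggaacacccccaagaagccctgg
Oas1a, chr5:120907526-120907705, minus strand: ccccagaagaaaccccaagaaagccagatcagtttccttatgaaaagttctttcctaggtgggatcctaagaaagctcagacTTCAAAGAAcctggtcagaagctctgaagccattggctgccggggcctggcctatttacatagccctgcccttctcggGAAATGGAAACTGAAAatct
Tgtp1, chr11:48992247-48992426, minus strand: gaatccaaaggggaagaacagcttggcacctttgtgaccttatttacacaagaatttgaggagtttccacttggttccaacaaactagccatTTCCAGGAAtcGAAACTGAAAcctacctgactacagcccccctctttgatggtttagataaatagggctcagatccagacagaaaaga
Gbp2, chr3:142620483-142620662, plus strand: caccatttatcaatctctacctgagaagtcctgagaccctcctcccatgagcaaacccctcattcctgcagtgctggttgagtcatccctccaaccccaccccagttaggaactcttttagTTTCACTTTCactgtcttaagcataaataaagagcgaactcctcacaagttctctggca
Gbp3, chr3:142559864-142560043, plus strand: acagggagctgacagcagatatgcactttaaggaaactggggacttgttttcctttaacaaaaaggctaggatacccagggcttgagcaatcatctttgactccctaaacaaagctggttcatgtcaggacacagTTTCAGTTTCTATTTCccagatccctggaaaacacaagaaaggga
Rsad2, chr12:26456453-26456632, minus strand: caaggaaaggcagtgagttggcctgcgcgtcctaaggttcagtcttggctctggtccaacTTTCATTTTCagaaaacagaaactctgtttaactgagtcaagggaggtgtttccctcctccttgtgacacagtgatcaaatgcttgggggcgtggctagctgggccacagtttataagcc
Irf1, chr11:53769834-53770013, plus strand: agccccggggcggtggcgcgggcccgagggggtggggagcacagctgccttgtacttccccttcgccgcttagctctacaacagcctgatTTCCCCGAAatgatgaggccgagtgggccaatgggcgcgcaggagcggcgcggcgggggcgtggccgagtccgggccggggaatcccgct
Irf8, chr8:120736178-120736357, plus strand: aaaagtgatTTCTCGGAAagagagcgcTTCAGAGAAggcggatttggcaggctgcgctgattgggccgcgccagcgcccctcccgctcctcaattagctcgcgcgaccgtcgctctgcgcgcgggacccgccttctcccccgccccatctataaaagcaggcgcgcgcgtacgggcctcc
In Isg15, 3 matches of the ISRE overlapped each other and began 78, 72 and 66 bases before the start. Oas1a, Gbp3, Irgm1 and Bst2 each had a pair of overlapping matches, and the GAS match of Bst2 overlapped its first ISRE match. In Tgtp1 and Igtp, a GAS lay just upstream of an ISRE. A match gives letters only and is no measure of binding.

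**Figure D1:**
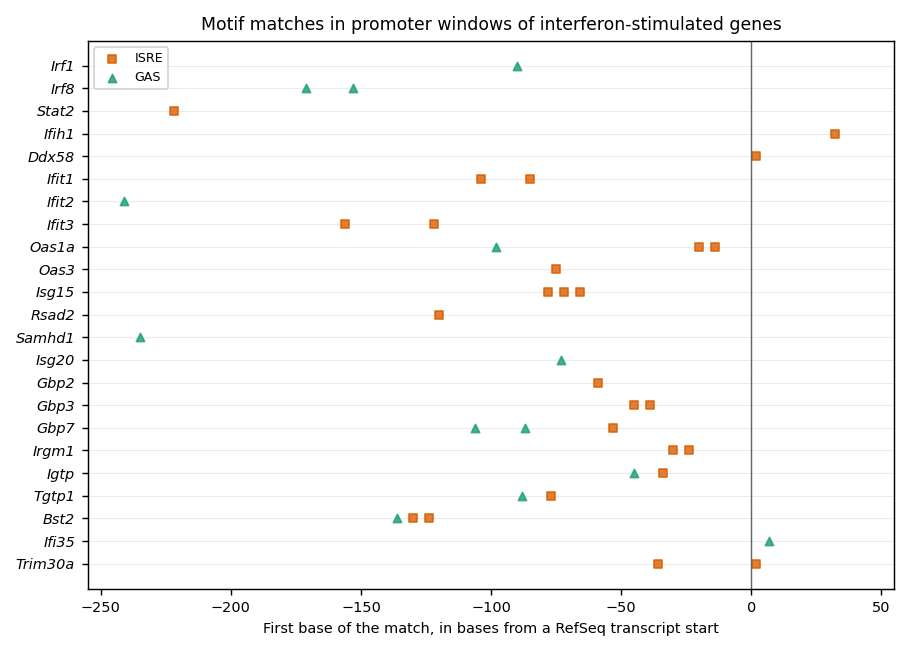
Positions of the ISRE (squares) and GAS (triangles) cores in promoter windows of the list. The x axis gives the first base of each match, in bases from a RefSeq transcript start (vertical line), and rows are the genes with at least 1 match. Most ISRE matches lay within the last 130 bases before the start. Those of Stat2 and 1 of Ifit3 lay farther upstream, and those of Ifih1 and Ddx58 and 1 of Trim30a lay after the start.

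Values are least-squares means of upper-quartile normalized read counts, with 1 mean for each group. Only these means were analysed, so the values below stand without an error, the spread between mice is unknown and no test over mice was run. Differences are therefore described by their size, and a gene was counted when the ratio of its means was at least 2-fold, beside the share of all expressed genes that passed the same limit. Depth per sample is unknown. The means are not divided by transcript length, so levels are compared between groups and not between genes. Scd2, the targeted gene, had means of 2.46 in control, 6.47 in TAL and 1.87 in CC TAL. The ratio of CC TAL to TAL was 0.289, as a description without a test. Albumin and the other 6 hepatocyte markers were present in all groups, with summed means of 32519 in control, 29489 in TAL and 33172 in CC TAL.

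The first comparison asks what DEN + WAD did to these genes in Scd2f/f liver. Of the 42 expressed genes, 19 (45.2%) were at least 2-fold higher in TAL than in control, where the share of all 11784 expressed genes was 6.40%. None of the 42 was at least 2-fold lower, against 2.89% of all genes. The means were higher in TAL for 40 of the 42, against 52.7% of all genes, and the exceptions were Isg20 and Ifi35. The median log2 ratio was 0.93 over the list and 0.03 over all genes. The 2-fold limit fell between Ifi27 with a ratio of 2.10 and Samhd1 with 1.95, so the count depends on where it is drawn. Genes with low means made up most of the count. With a mean of 1 to 10, 16 of 25 genes (64.0%) were at least 2-fold higher, where the share of all genes at that level was 9.83%. With a mean of 10 or more, the count was 3 of 17 (17.6%), where the share of all genes was 2.60%. No count here distinguishes more RNA per cell from more cells that make it, since bulk tissue was sequenced.

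**Figure D2:**
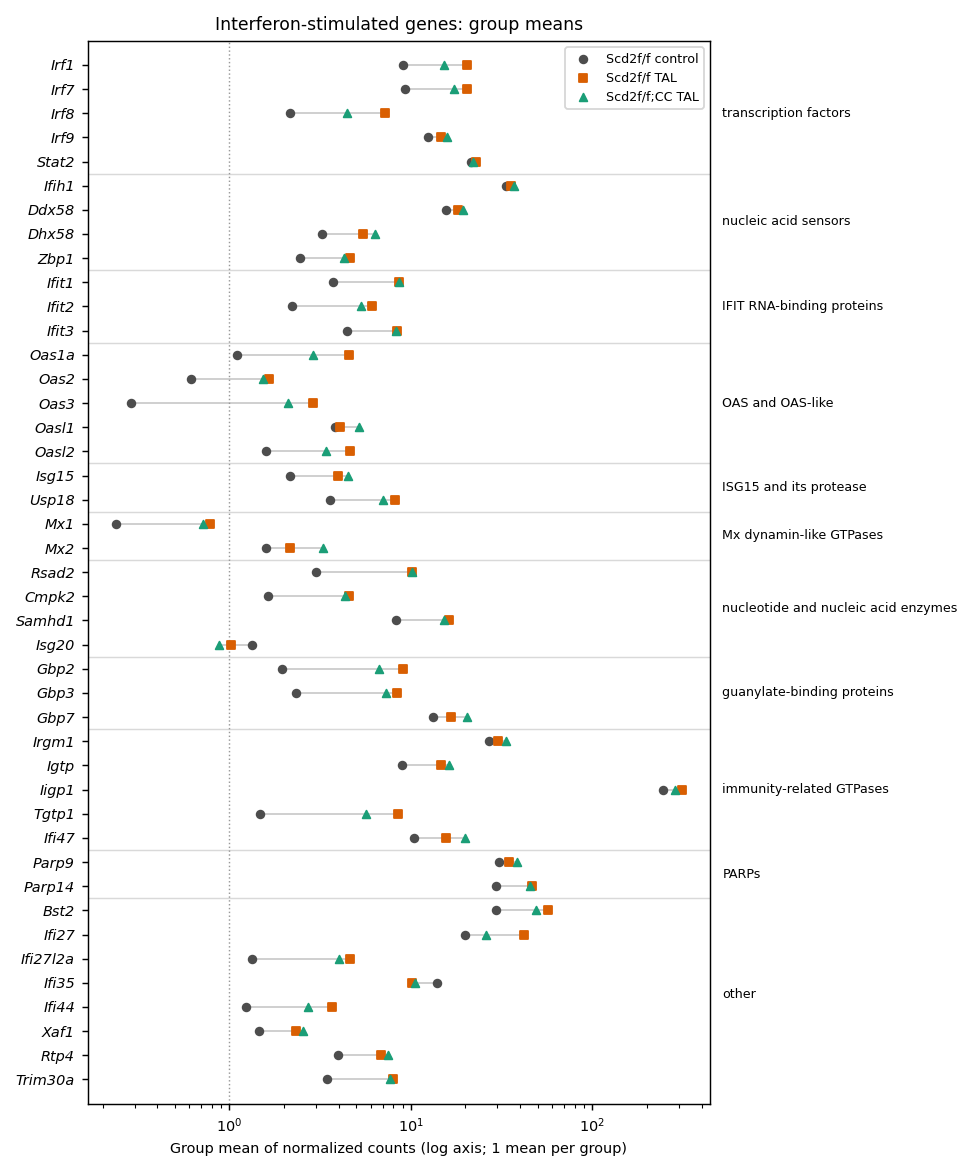
Group means of normalized counts (x axis, log scale) for the 43 genes (rows, grouped by role) in control (circles), TAL (squares) and CC TAL (triangles). Each symbol is 1 group mean without error, and the dotted line marks a mean of 1. The control symbol lies to the left of both TAL symbols for 41 of the 43 genes, Isg20 and Ifi35 being the exceptions.

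Oligoadenylate synthetases make a second messenger that activates RNase L, which degrades RNA. Oas3 had the highest ratio of the list, with means of 0.288 in control, 2.89 in TAL and 2.10 in CC TAL, a 10.0-fold difference between TAL and control. The control mean of Oas3 is low, and with 1 added to each mean its log2 ratio was 1.59 in place of 3.33. Oas1a had means of 1.10, 4.57 and 2.88 in the same order, and Oas2 had means of 0.616, 1.65 and 1.54. These 3 genes lie together on chromosome 5 from 120730333 to 120907522 (mm10), and all were at least 2-fold higher in TAL than in control. Oas2, whose control mean is also low, fell below this limit when 1 was added to its means. Its log2 ratio then went from 1.42 to 0.71, while Oas3 and Oas1a stayed above the limit. The OAS-like genes Oasl2 and Oasl1, 11004 bases apart on the same chromosome, differed from each other. Oasl2 had means of 1.59, 4.60 and 3.42. Oasl1, a known brake on the translation of IRF7, had means of 3.82, 4.05 and 5.19, a ratio of TAL to control of 1.06.

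Guanylate-binding proteins coat pathogen vacuoles. Gbp2 had means of 1.96 in control, 9.02 in TAL and 6.65 in CC TAL, a ratio of TAL to control of 4.60. Gbp3 had means of 2.33, 8.34 and 7.25. Their neighbour Gbp7 had means of 13.2, 16.6 and 20.3, and its ratio of TAL to control, 1.26, was the lowest of the 3. All 3 have an ISRE and lie on chromosome 3 from 142530342 to 142638009. The immunity-related GTPases act on the same vacuoles. Tgtp1 (also known as Irgb6) had means of 1.47, 8.48 and 5.64, and its ratio of TAL to control, 5.77, was the second highest of the list. Igtp had means of 8.92, 14.7 and 16.3, and Ifi47 had means of 10.4, 15.7 and 19.9, with ratios of TAL to control of 1.65 and 1.51. Irgm1, which regulates the other GTPases of the family, had means of 26.9, 30.2 and 33.6. Iigp1 (Irga6) had means of 245, 311 and 287, a ratio of TAL to control of 1.27. Of these 5 genes, only Tgtp1 was at least 2-fold higher in TAL than in control. Tgtp1 shares most of its sequence with its copy Tgtp2, another gene of the family outside the list, which had means of 2.05, 7.65 and 5.53 and a ratio of TAL to control of 3.73. The reads of the 2 genes may have been divided between them by the quantification.

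IFIT proteins bind RNA that lacks the marks of self. Ifit2, Ifit3 and Ifit1 lie side by side on chromosome 19 from 34550694 to 34650010. Ifit1 had means of 3.73 in control, 8.62 in TAL and 8.55 in CC TAL, and Ifit2 had means of 2.21, 6.09 and 5.29. Both were at least 2-fold higher in TAL than in control, and Ifit3, with means of 4.44, 8.38 and 8.30, was just below that limit with a ratio of 1.89. Rsad2 (viperin), which makes a chain-terminating nucleotide, had means of 2.99, 10.1 and 10.2. Cmpk2, a mitochondrial nucleotide kinase encoded 12750 bases from Rsad2 on chromosome 12, had means of 1.63, 4.57 and 4.33. Both were at least 2-fold higher in TAL than in control, and their ratios of CC TAL to TAL were 1.01 and 0.947. Samhd1, which depletes deoxynucleotides, had means of 8.29, 16.2 and 15.2. The exonuclease gene Isg20 went the other way, with means of 1.34, 1.02 and 0.875.

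Of the 5 transcription factor genes, 3 were at least 2-fold higher in TAL than in control. Irf8, a factor of the myeloid and dendritic lineages, had means of 2.17 in control, 7.17 in TAL and 4.44 in CC TAL. Irf1, the early factor of the IFN-γ response, had means of 9.07, 20.3 and 15.3, and Irf7, the main inducer of IFN-α genes, had means of 9.34, 20.5 and 17.2. The ratios of TAL to control were 3.30, 2.24 and 2.19 for these 3. Irf9 and Stat2, subunits of the complex that binds the ISRE, had ratios of 1.18 and 1.07. Means were 12.4, 14.6 and 15.9 for Irf9 and 21.5, 22.9 and 22 for Stat2.

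RNA and DNA sensors had smaller ratios. Ifih1 (MDA5) had means of 33.3 in control, 35.7 in TAL and 36.8 in CC TAL, and Ddx58 (RIG-I) had means of 15.6, 18.1 and 19.5. Dhx58 (LGP2), a regulator of both, had means of 3.23, 5.45 and 6.32, and Zbp1, a sensor of Z-form nucleic acids, had means of 2.44, 4.61 and 4.26. None of the 4 sensors was at least 2-fold higher, and the ratios of TAL to control ran from 1.07 to 1.89. The ubiquitin-like modifier gene Isg15 had means of 2.15, 3.96 and 4.51. Usp18, which removes ISG15 from proteins and blocks the type I receptor, had means of 3.59, 8.18 and 7.0, a ratio of TAL to control of 2.28. The Mx genes encode dynamin-like GTPases, and both are known to be defective in most laboratory strains, C57BL/6 included. The table lists Mx2 as a polymorphic pseudogene, with means of 1.59, 2.16 and 3.26. Mx1 was the gene below a mean of 1, with means of 0.237, 0.786 and 0.717.

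Of the other members, Ifi27l2a had means of 1.33 in control, 4.63 in TAL and 4.04 in CC TAL, and its neighbour Ifi27 had means of 19.9, 41.8 and 26.0. Ifi44 had means of 1.24, 3.67 and 2.70, and the ubiquitin ligase gene Trim30a had means of 3.45, 8.0 and 7.72. These 4 were at least 2-fold higher in TAL than in control. Bst2 (tetherin), which holds budding virions on the cell surface, had means of 29.5, 56.7 and 48.7, a ratio of 1.92. Xaf1, an antagonist of the apoptosis inhibitor XIAP, and Rtp4, a receptor transporter, had ratios of TAL to control of 1.60 and 1.74. Their means were 1.46, 2.33 and 2.56 for Xaf1 and 3.95, 6.87 and 7.52 for Rtp4, in each case with the highest mean in CC TAL. The ADP-ribosyltransferase genes Parp14 and Parp9 had ratios of 1.59 and 1.13, with means of 29.3, 46.7 and 45.6 for Parp14 and 30.6, 34.7 and 38.3 for Parp9. Ifi35 had means of 13.9, 10.1 and 10.5, so its mean was lower in both TAL groups than in control.

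The second comparison sets CC TAL against TAL, both under DEN + WAD, which differ by the Col1a1-Cre transgene. Loss of Scd2 and presence of Cre cannot be told apart, as no group had Cre without the floxed gene. None of the 42 genes was at least 2-fold higher or lower in CC TAL than in TAL, where 0.645% of all genes were higher and 1.54% lower by that limit. At 1.5-fold, 4 genes (9.52%) were lower, against 4.90% of all genes, and 1 gene (2.38%) was higher, against 2.35%. The lower genes were Irf8 with a ratio of 0.619, Ifi27 with 0.622, Oas1a with 0.630 and Tgtp1 with 0.665. The higher gene was Mx2, with a ratio of 1.51. The median log2 ratio was -0.07 over the list and 0.01 over all genes. Of the 42 genes, 26 had a lower and 16 (38.1%) a higher mean in CC TAL, against 50.6% of all genes with a higher mean. With a mean of 10 or more, the median over 17 genes was 0.04, so the direction of this small difference depended on the level of the genes counted. Without values of single mice, these counts do not separate the list from other genes in this comparison.

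**Figure D3:**
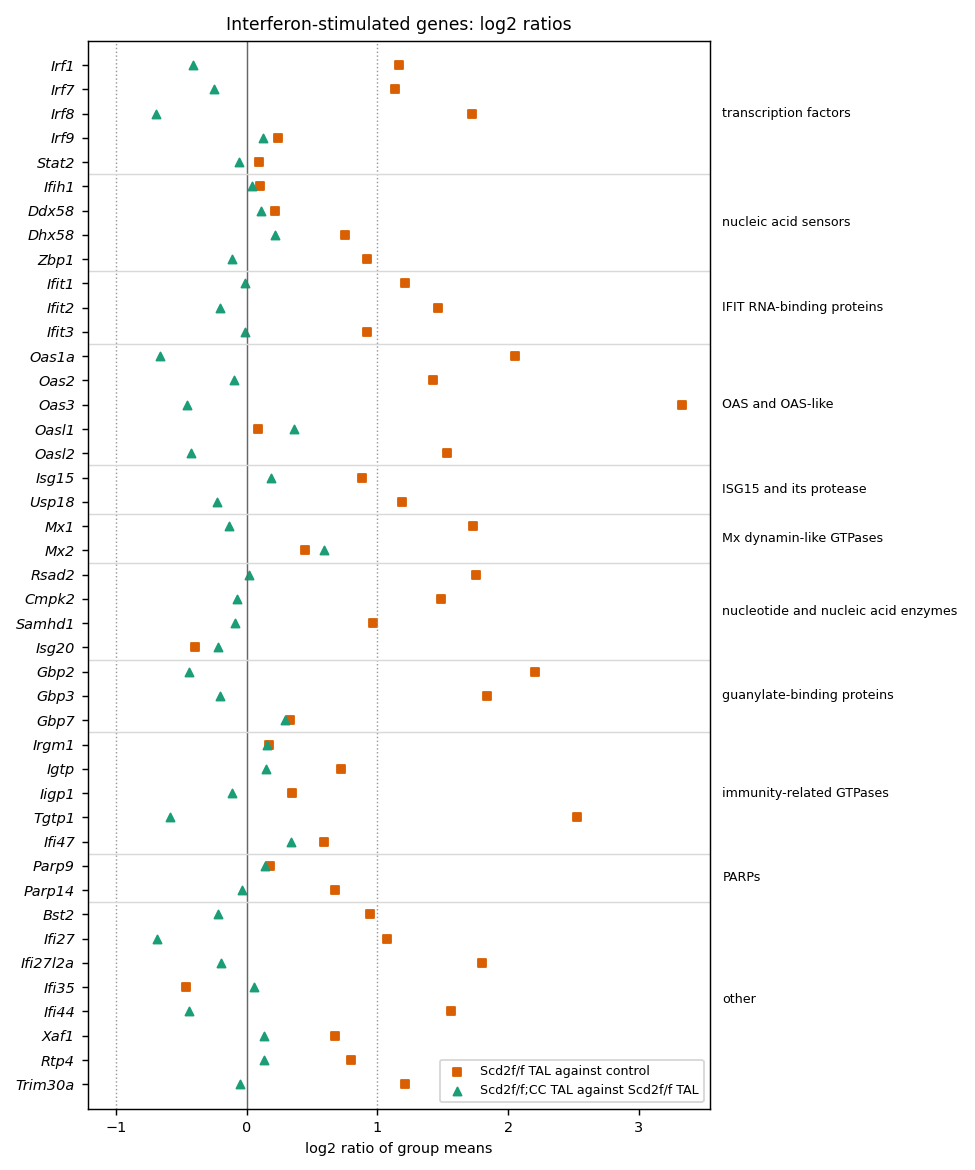
Log2 ratios of group means (x axis) for the 43 genes (rows, grouped by role), for TAL against control (squares) and CC TAL against TAL (triangles). Dotted lines mark 2-fold in each direction. The triangles lie between the dotted lines for all 43 genes, from 0.619 for Irf8 to 1.51 for Mx2 as ratios, while squares reach 10.0 for Oas3.

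The third comparison sets CC TAL against control. Of the 42 genes, 17 (40.5%) were at least 2-fold higher, against 4.51% of all genes, and 0 were at least 2-fold lower, against 2.55%. With a mean of 10 or more, 0 of 17 genes were at least 2-fold higher, against 2.29% of all genes at that level, and with 1 added to each mean the count was 8 of 42, against 2.21%. The median log2 ratio was 0.92 over the list and 0.04 over all genes. Both treated groups are compared with the same controls, and TAL enters the first and the second comparison, so a high TAL mean raises one ratio and lowers the other. Of the 19 genes at least 2-fold higher in TAL than in control, 15 were also at least 2-fold higher in CC TAL than in control. The 4 others were Usp18, Irf7, Irf1 and Ifi27, with ratios of CC TAL to control of 1.95, 1.84, 1.69 and 1.31. Isg15 and Mx2 were at least 2-fold higher only in the comparison of CC TAL with control, with ratios of 2.10 and 2.05, and their ratios of TAL to control were 1.84 and 1.36. In 18 of the 19 genes, the mean of CC TAL lay between those of control and TAL, Rsad2 being the exception. Ratios of CC TAL to TAL among the 19 ran from 0.619 to 1.01, with a median of 0.839. Among the 23 genes below 2-fold in the first comparison, 8 had a lower and 15 a higher mean in CC TAL than in TAL. The 19 and the 23 were divided by the ratio of TAL to control, which by itself favours such a difference. The same counts were not made for the 754 expressed genes that were at least 2-fold higher in TAL. The counts therefore do not set the list apart.

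The presence of an ISRE was not accompanied by a larger median ratio. The 17 genes with an ISRE had a median log2 ratio of TAL to control of 0.94, from 0.09 for Stat2 to 3.33 for Oas3, and 8 of them were at least 2-fold higher. The 14 genes with a window and no ISRE had a median of 1.05, and 7 were at least 2-fold higher. For the GAS, the medians were 0.97 over 11 genes with and 1.03 over 20 genes without a match. Ifit2 and Cmpk2, at least 2-fold higher in TAL than in control, had no ISRE in these windows, while Ifih1 and Stat2 had an ISRE and ratios of 1.07.

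Other genes of the pathway were taken from lists of ligands, receptors, signalling genes and further targets. Of 21 interferon genes, Ifnk was the one analysed here, with means of 0.209 in control, 0.211 in TAL and 0.244 in CC TAL. The type I receptor genes Ifnar1 and Ifnar2 had means of 23.0, 23.9 and 23.8, and of 24.3, 32.4 and 30.7. Of the IFN-γ receptor genes, Ifngr1 had means of 10.8, 16.9 and 11.4, and Ifngr2 had means of 21.2, 17.8 and 13.6. None of these 4 receptor genes reached 2-fold in any comparison. Il10rb, a chain shared by the receptors for IFN-λ and interleukin-10, had means of 2.86, 6.83 and 4.09, a ratio of TAL to control of 2.39. Ifnlr1, the other chain of the IFN-λ receptor, had means of 0.125, 0.114 and 0.062, below a mean of 1. Among signalling genes, the phosphatase gene Ptpn6 had means of 5.16, 14.3 and 12.2, at least 2-fold higher in TAL than in control. Socs3, a feedback inhibitor of cytokine receptors that is induced mainly through STAT3, had means of 6.44, 16.2 and 4.71, and its ratio of CC TAL to TAL was 0.291. No other expressed gene of the pathway lists passed 2-fold in that comparison. Of the 12 expressed genes that induce interferons, such as Tlr7 and Irf3, 2 were at least 2-fold higher in TAL than in control, against 6.40% of all genes. Tlr7, an endosomal sensor of RNA in dendritic cells, B cells and macrophages, had means of 1.08, 5.16 and 3.20. The other was Tmem173 (STING), the adaptor for cytosolic DNA, with means of 0.592, 1.60 and 0.910. Tmem173 passed the limit for expressed genes only through TAL, the group where it was high. Tlr9 and Mb21d1, with ratios of TAL to control of 5.56 and 2.09, stayed below that limit, so the count depends on it.

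The list of other interferon-induced genes held 73 symbols, of which 71 were in the table and 63 were expressed. Of these 63, 26 were at least 2-fold higher in TAL than in control, against 6.40% of all genes, and 0 were at least 2-fold lower, against 2.89%. The median log2 ratio was 0.78. Cxcl10, a chemokine that attracts activated T cells, had means of 0.739 in control, 5.97 in TAL and 3.94 in CC TAL, a ratio of TAL to control of 8.08. Cxcl9, a chemokine for the same receptor that is induced mainly by IFN-γ, had means of 2.71, 13.4 and 10.5. Ciita, the IFN-γ-inducible master regulator of MHC class II genes, had a ratio of TAL to control of 4.19, and Gbp5, Gbp6 and Gbp10 had ratios of 5.02, 4.59 and 4.00. All 6 were among the 10 highest ratios of the 63 genes. The others of the 10 were Ifi205, Slfn2, Epsti1 and Slfn8, with ratios of 5.22, 4.61, 4.56 and 3.90. In CC TAL against TAL, 0 of the 63 were at least 2-fold higher or lower, 6 were at least 1.5-fold lower (4.90% of all genes) and the median log2 ratio was -0.12. In CC TAL against control, 23 were at least 2-fold higher (4.51% of all genes) and 1 was lower (2.55% of all genes), Plscr1, a phospholipid scramblase gene with means of 21.4, 11.2 and 7.07.

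**Figure D4:**
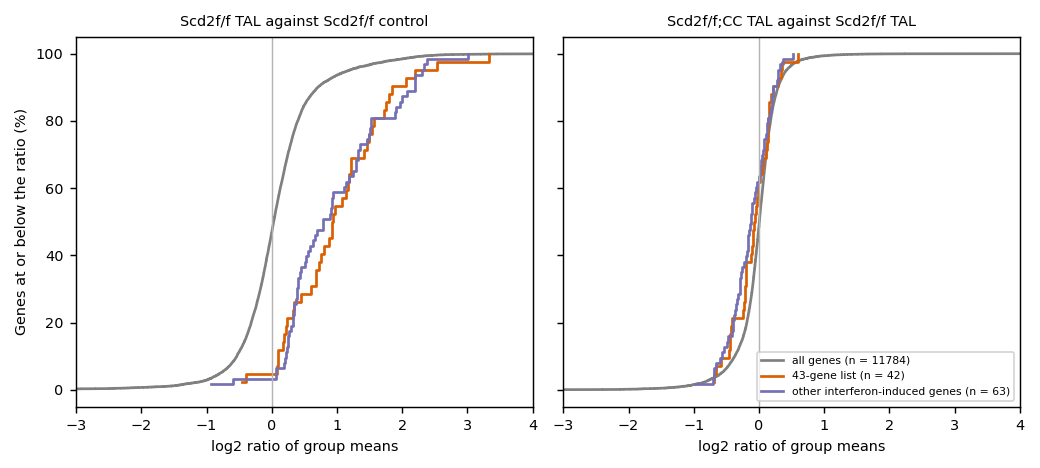
Cumulative share of genes (y axis, percent) by log2 ratio of group means (x axis) for the 42 expressed interferon-stimulated genes, the 63 other interferon-induced genes and all 11784 genes. Panels show TAL against control and CC TAL against TAL, and genes beyond the ends of the x axis are not drawn. In the first, the curve of the list lies to the right of that of all genes, with medians of 0.93 and 0.03, and in the second the medians are -0.07 and 0.01.

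Summed markers of several cell types also differed between the groups. All 10 macrophage markers were at least 2-fold higher in TAL than in control, and their summed means were 106 in control, 404 in TAL and 329 in CC TAL. Clec4f, a marker of Kupffer cells, had means of 27.3, 71.2 and 71.7, and Ccr2, a marker of recruited monocytes, had means of 0.564, 3.78 and 2.10. Of the 10 macrophage markers, they had the highest and the lowest ratio of CC TAL to TAL, 1.01 and 0.556. All but Clec4f were lower in CC TAL than in TAL. For the markers of dendritic cells, 6 of 7 in the table, the sums were 2.53, 7.55 and 4.04, and for those of T and NK cells, 8 of 9, they were 1.85, 5.78 and 3.33. None of the 8 T and NK markers and only 2 of the 6 dendritic markers reached a mean of 1. These 2 were Itgax, which alone had means of 0.235, 3.66 and 1.12, and Clec9a, with means of 1.03, 1.48 and 1.15. For neutrophils, with 3 of 5 markers, they were 1.04, 4.27 and 3.46, and for B and plasma cells they were 4.93, 5.38 and 4.55. Sums for leukocyte lists other than B and plasma cells were thus higher in both TAL groups than in control and lower in CC TAL than in TAL. The 9 markers of stellate cells and fibroblasts summed to 132, 224 and 129 and were all lower in CC TAL than in TAL, with a ratio of sums of 0.574. Of the 9, 7 were higher in TAL than in control, and only Col1a1, Col1a2 and Col3a1 were at least 2-fold higher. Des and Acta2 were lower in TAL, with ratios of 0.774 and 0.945, and Acta2 had a mean below 1. Endothelial markers summed to 105, 142 and 143, those of cholangiocytes to 6.37, 8.04 and 4.31, and those of proliferation to 3.27, 15 and 8.70. The higher cholangiocyte sum in TAL came from Sox9, with means of 3.0, 5.03 and 3.52. Krt19, Krt7 and Epcam had ratios of TAL to control of 1.01, 0.669 and 0.924. The part of these shifts in the ratios of the interferon-stimulated genes was not tested, and fewer cells of a type and less RNA per cell cannot be told apart in bulk tissue.

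**Figure D5:**
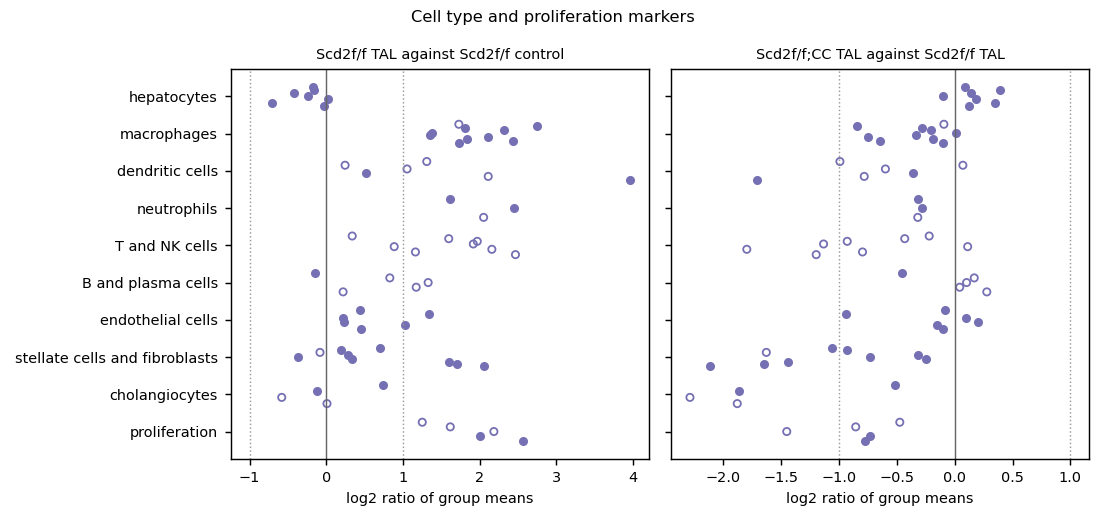
Log2 ratios of group means (x axes) for single marker genes (points, in rows by cell type, spread vertically for legibility), for TAL against control and CC TAL against TAL. Open points have a mean below 1 and dotted lines mark 2-fold. All 10 macrophage points lie beyond 2-fold in the first panel, and all 9 points of stellate cells and fibroblasts lie below 0 in the second.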

How the data were processed

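RNA was extracted from liver of 9 mice with a PicoPure kit, and libraries were prepared with TruSeq v2. The submitters' processing notes name STAR 2.6.1, Partek 6 and build mm10, and the study's methods give upper-quartile normalization of Gencode-based counts. The values the authors deposited are a signal, the least-squares mean of normalized counts in each group, written to 3 significant digits. Depth per sample, and hence the precision of a mean, is unknown. The 8 columns with the authors' own p-values, adjusted p-values, ratios and fold changes were not used. Samples were grouped by genotype and treatment labels.

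Ratios of group means were computed for 16755 genes in Python 3.11.15 with pandas 2.3.3 and NumPy 2.4.6, and drawn with Matplotlib 3.10.9. A gene was counted at 2-fold or more with a mean over the 3 groups of at least 1. The arithmetic of this count was tested on simulated data with known ratios, which bears on no spread between mice. Since single-mouse values were not analysed here, no test was run. Members and lists were chosen with earlier results of these data known. Genes past 2-fold in any comparison, and the 10 members with the highest means, were to be described singly and the others by role. Other members are named as well so that each one is accounted for. From the other lists, receptors, the ligand found and at most 10 genes past 2-fold per comparison were to be named, and 1 item is not reported here. Markers were given as sums. Those named singly (Clec4f, Ccr2, Itgax, Clec9a, the cholangiocyte markers and single markers of stellate cells and fibroblasts) were chosen after their values were seen. Some symbols in the table had been turned into dates (20 genes), none of them a member. Alternatives were 1.5-fold and 3-fold limits, a mean of at least 10, centring on the median over all genes, and pseudocounts of 0.1 and 1. Motifs were searched in RefSeq promoter windows of GRCm38.p6, the same assembly as mm10.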

Additional observations from a re-analysis of the deposited data

How the results depend on the processing

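No paired analysis was possible because the values are group means, and for the same reason no mouse could be left out in turn. For TAL against control, the 19 genes at 2-fold, all higher, became 30 at 1.5-fold and 8 at 3-fold, also all higher. The shares of all genes that were higher were 12.8% and 2.89%. With a mean of at least 10, 3 of 17 were higher, against 2.60% of all genes. The median log2 ratio of 0.93 became 0.34 with a mean of at least 10 and 0.75 with a pseudocount of 1. For CC TAL against control, 17 genes became 32 at 1.5-fold, 6 at 3-fold, 0 with a mean of at least 10 and 8 with a pseudocount of 1, and the median of 0.92 became 0.39 and 0.77. For CC TAL against TAL, 0 genes became 5 at 1.5-fold, 4 lower and 1 higher, against 4.90% and 2.35% of all genes. The median of -0.07 became 0.044 with a mean of at least 10. Fewer genes are counted at the higher mean, and a pseudocount shrinks ratios of low genes by construction. Every other alternative for these counts and medians, and the share of ISRE promoters with a shorter core, stayed within the tolerance set for them. Of the log2 ratios of single genes, 58 moved, all of them with a pseudocount, and 320 did not.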

Other observations

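Ly6e, an interferon-induced membrane protein gene of the wider list, was chosen after its values were seen. Its means were 53.9 in control, 132 in TAL and 67.0 in CC TAL, and its ratio of 0.508 between the TAL groups was the lowest of the 63 other interferon-induced genes with a mean of at least 1. Oas1g, a near-identical relative of Oas1a, had means of 0.413, 1.53 and 1.28, so reads may have been divided between these genes as for Tgtp1 and Tgtp2.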
